A study of Arabidopsis thaliana with 8 samples.

Results

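The probe sets described here read transcription factor genes of the WRKY and NAC families in Arabidopsis thaliana shoots. They were chosen from an Affymetrix ATH1 array, on which each transcript is read by a set of short oligonucleotides (a probe set), as every probe set with 1 gene whose current symbol is MYB, WRKY or NAC followed directly by a number. The rule found 7 of the 13513 probe sets with 1 gene, among 22746 probe sets that are not array controls. These were 6 WRKY probe sets, for WRKY6, WRKY20, WRKY22, WRKY42, WRKY47 and WRKY53, and 1 NAC probe set, for NAC014. No MYB gene was found (0 probe sets), so nothing is said here of MYB levels. The gene table used for names has 120 genes with a MYB symbol of this form, 67 with a WRKY symbol and 79 with a NAC symbol. Another 8730 probe sets carry no gene name here, and none of the 503 that list several genes has such a symbol. The 7 members therefore do not stand for their families.

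Shoots of the mutant ga1-3 in the Ler background, which makes very little gibberellin, were compared 1 h after the whole seedlings had been misted with water (4 arrays) or with 2 µM of the gibberellin GA4 (4 arrays). Both groups were seedlings aged 8 days, grown upright in continuous light at 22 °C on medium with 2% sucrose. The comparison asks which genes answer early to gibberellin. All 8 arrays carry the ga1-3 mutation and no wild-type or unsprayed shoots were analysed here, so the water arrays are the control. The labels number the biological replicates 1 to 4 in each group without saying what a number marks.

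WRKY proteins bind DNA through a zinc-containing domain and recognise the W-box of their target promoters. Many are known from immunity, senescence and nutrient supply, and several are induced quickly by wounding or touch. NAC proteins share a DNA-binding domain at their amino end, and a subgroup is held at membranes until it is cut free. Gibberellin acts by removing DELLA proteins, which work largely by binding transcription factors of many families.

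None of the 6 members that could be tested differed between GA4 and water at the threshold, an adjusted p of 0.05 in limma, a linear model fitted to all 13648 tested probe sets. NAC014 came nearest. Its signal was lower on the GA4 array in all 4 replicate numbers, with a mean difference of −0.66 on the log2 scale (1.58-fold). WRKY22 and WRKY6 were also lower on GA4 in 4 of 4 numbers, at −0.37 and −0.28, and the replicate 3 value of WRKY6 was practically 0. WRKY53, the senescence regulator, had the only positive mean among the 6, at 0.27. WRKY20 had the smallest difference of the 6, at −0.0042.

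Signals are MAS5 intensities in arbitrary units on a linear scale. Of the 7 members, 6 had a geometric mean above 110 units over the 8 arrays, against 60.0% of all probe sets that are not controls and 54.3% of those with 1 gene. That level is where the brightest 60% of probe sets begin, and those were the ones tested. The 5 WRKY members above it lay between 149 and 802 units, and NAC014 was at 348. A signal depends on the oligonucleotides of its probe set, so these levels do not rank the genes. Above the level, the member nearest to it was WRKY6 at 149. Below it was WRKY42 at 17.8. Over single arrays, 47 of the 56 member values were above 110. The 9 others were all 8 of WRKY42 and 1 of WRKY6, so 5 of 7 members were above 110 on every array, against 51.4% of all probe sets.

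**Figure D1:**
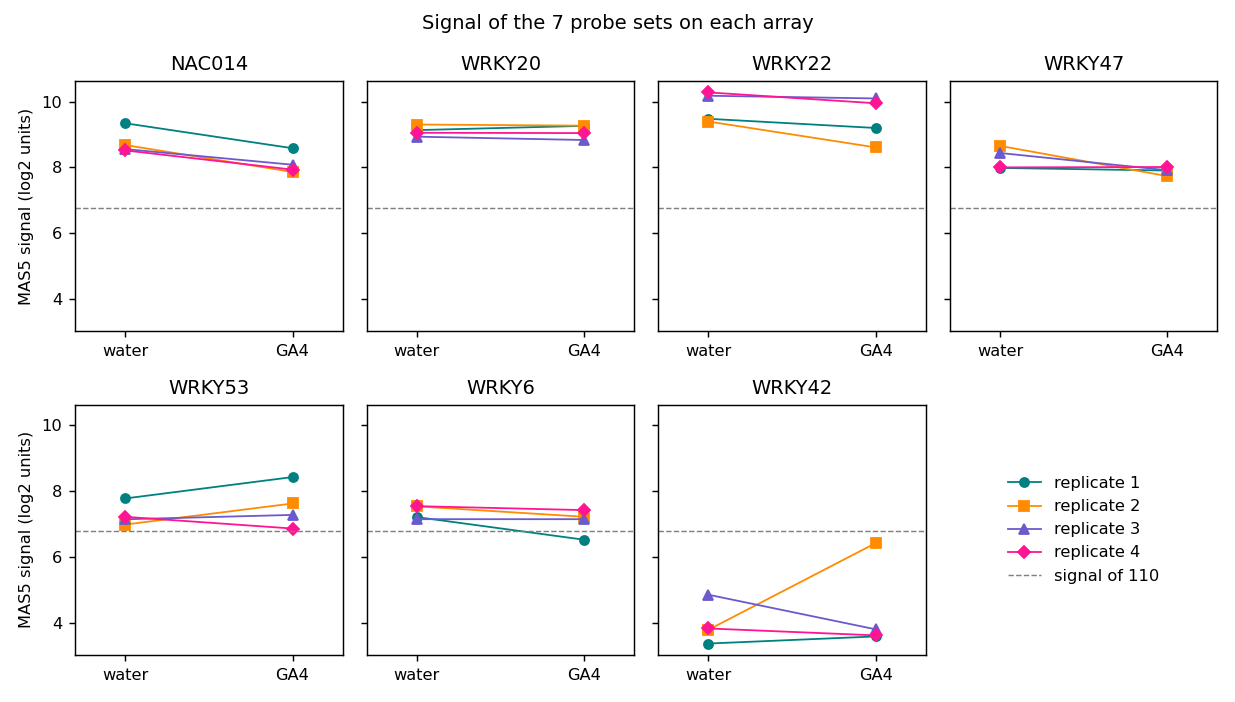
MAS5 signal of each member on the log2 scale (vertical axis) on the water and GA4 arrays, with a line joining arrays of the same replicate number and a dashed line at a signal of 110. The lines of NAC014 run down in all 4 numbers, those of WRKY22 split into replicates 3 and 4 above and replicates 1 and 2 below, and WRKY42 stays under the dashed line on all 8 arrays.

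NAC014 (AT1G33060, probe set 261616_at) encodes a NAC protein with a membrane anchor. Its signal was 649, 410, 376 and 366 on water replicates 1 to 4. The GA4 arrays in the same order gave 383, 233, 271 and 244. GA4 replicates 2, 3 and 4 lay below every water array, and GA4 replicate 1 lay above water replicates 3 and 4, so the groups overlapped. The mean log2 signal was 8.77 ± 0.38 in water and 8.11 ± 0.33 in GA4 (SD, n = 4). By replicate number, GA4 minus water was −0.76, −0.82, −0.47 and −0.58. The highest water array and the highest GA4 array were both of replicate 1. The SD of the differences by number was 0.16.

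In the limma fit without a block, NAC014 was at −0.66 with an SE of 0.24 and a 95% interval of −1.20 to −0.12 (unadjusted p = 0.0217, adjusted p = 1.00 over 13648 probe sets). With the replicate number as a block the SE was 0.14 and the interval −0.96 to −0.35 (unadjusted p = 0.000628, adjusted p = 0.0902). Without water replicate 1 alone the difference in the limma fit without a block was −0.47 (unadjusted p = 0.0620). Without GA4 replicate 2 or 4 alone it was −0.57 or −0.60 (unadjusted p = 0.0565 or 0.0556). Leaving out any other single array kept the unadjusted p under 0.05. With the replicate block and 1 number left out the difference was −0.72 to −0.61. Among the tested probe sets 1.72% (235 of 13648) had a mean difference at least as low. The intervals are for this gene alone and are not adjusted for the number of probe sets. In bulk tissue, fewer cells that hold a transcript and less of it per cell cannot be told apart.

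WRKY22 (AT4G01250, 255568_at) acts downstream of a kinase cascade in immune signalling. On water replicates 1 to 4 its signal was 713, 673, 1158 and 1243. After GA4 the 4 values were 587, 390, 1094 and 988. Replicates 3 and 4 were higher than replicates 1 and 2 in both treatments, with no overlap, and the treatments overlapped. GA4 minus water by number was −0.28, −0.79, −0.082 and −0.33. The mean of −0.37 had an SE of 0.35 without a block, with an interval of −1.15 to 0.41 (adjusted p = 1.00). With the replicate block the SE was 0.14 and the interval −0.67 to −0.068 (unadjusted p = 0.0209, adjusted p = 0.342). Without GA4 replicate 2 alone the difference was −0.085, and without GA4 replicate 3 alone it was −0.58. Leaving out a single array also unbalances replicates 1 and 2 against replicates 3 and 4, which differ in level for WRKY22. With the replicate block and without replicate 2 the difference was −0.23.

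WRKY6 (AT1G62300, 264746_at), WRKY42 (AT4G04450, 255337_at) and WRKY47 (AT4G01720, 255596_at) belong to the same WRKY subgroup. WRKY6 is known from senescence and, with WRKY42, from the control of phosphate transport. The signal of WRKY6 was 148, 186, 142 and 186 on water replicates 1 to 4. The 4 GA4 arrays had 91.9, 149, 142 and 172. GA4 replicate 1 was the lowest of the 8 and the only one under 110, and the other 3 GA4 arrays lay within the range of the water arrays or level with its lower end. By number the differences were −0.69, −0.32, −0.00045 and −0.12. Their mean of −0.28 had an SE of 0.25 without a block and an interval of −0.85 to 0.28 (adjusted p = 1.00). With the replicate block the SE was 0.20 and the interval −0.73 to 0.17 (adjusted p = 0.612). Without GA4 replicate 1 alone the mean was −0.096.

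WRKY47 had a signal of 253, 403, 347 and 256 on water replicates 1 to 4. On GA4 replicates 1 to 4 it was 240, 213, 241 and 258. The GA4 arrays lay close together, with an SD of 0.12 on the log2 scale against 0.33 in water, and GA4 replicate 4 lay above water replicates 1 and 4. By number the differences were −0.080, −0.92, −0.52 and 0.011. The mean of −0.38 came mainly from replicates 2 and 3, whose water arrays were the bright ones. It had an SE of 0.20 without a block and an interval of −0.83 to 0.077 (adjusted p = 1.00, and 0.454 with the replicate block). Without water replicate 2 alone the mean of WRKY47 was −0.25, and with the replicate block and without replicate 2 it was −0.20.

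WRKY42 was dim on every array. Its signal was 10.3, 13.8, 28.9 and 14.2 on water replicates 1 to 4. With GA4 it was 12, 85.7, 13.9 and 12.3. GA4 replicate 2 stood apart from the other 7, at a level still under 110. No detection calls were used, so these values cannot be told from background, and the probe set was not tested.

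WRKY53 (AT4G23810, 254231_at) is known as a positive regulator of leaf senescence and is also induced in defence. On water replicates 1 to 4 its signal was 219, 127, 141 and 149. With GA4 the values were 344, 197, 155 and 116. Replicate 1 was the brightest number in both treatments, and GA4 replicate 4 was the dimmest of the 8 arrays. The differences were 0.65, 0.64, 0.13 and −0.36, positive in replicates 1 to 3 and negative in replicate 4. The mean of 0.27 had an SE of 0.34 without a block and an interval of −0.49 to 1.02 (adjusted p = 1.00, and 0.648 with the replicate block). Without GA4 replicate 1 alone it was −0.026, in a fit that keeps the bright water replicate 1. With the replicate block and 1 number left out it was 0.14 to 0.47.

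WRKY20 (AT4G26640, 253983_at) encodes a protein with a pair of WRKY domains. Its signal was 562, 632, 489 and 531 on water replicates 1 to 4. On GA4 replicates 1 to 4 it was 614, 617, 456 and 527. Each GA4 array lay close to the water array of its number, with differences of 0.13, −0.034, −0.10 and −0.011. Their SD of 0.097 was small among the tested probe sets, of which 95.0% had a wider spread. The mean had an SE of 0.17 without a block and an interval of −0.38 to 0.38, and with the replicate block the interval was −0.27 to 0.26 (adjusted p = 0.992). Differences within those bounds were not distinguishable from 0 with these arrays.

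**Figure D2:**
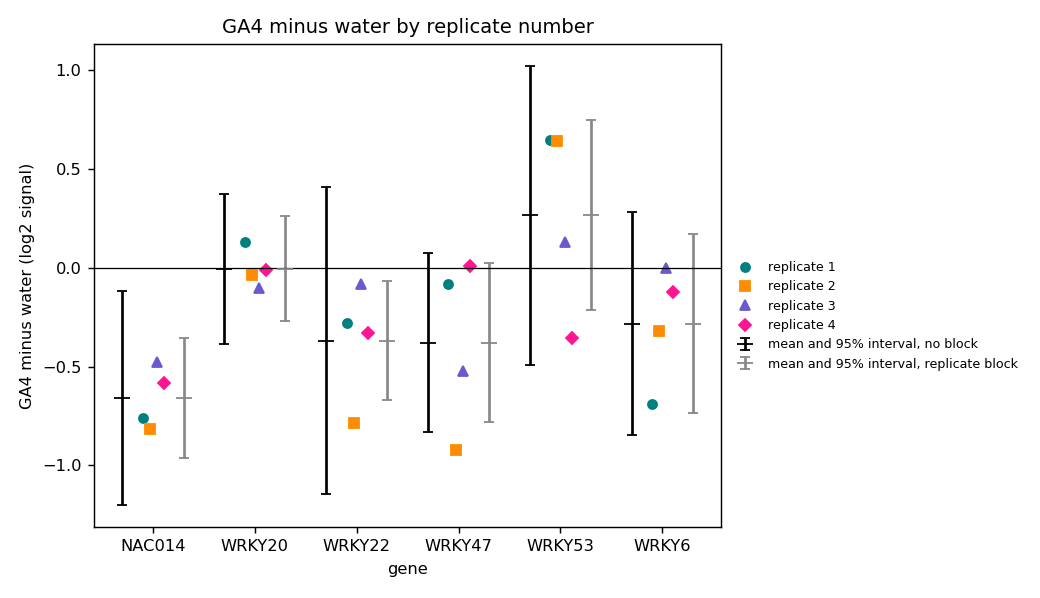
GA4 minus water on the log2 scale (vertical axis) for the 6 tested members, with 1 symbol per replicate number and, on either side, the mean with its 95% interval from limma without a block (black) and with the replicate block (grey). The 4 symbols of NAC014 lie between −0.82 and −0.47, while those of WRKY53 run from −0.36 to 0.65.

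Over the 6 tested members, 0 were called without a block, against 0.0147% of all tested probe sets (2 of 13648). With the replicate block 0 were called, against 0.293% (40 of 13648). At an unadjusted p under 0.05, the count was 1 of 6 without a block (NAC014), against 2.65% of all tested, and 2 of 6 with it (NAC014 and WRKY22), against 11.8%. Lower in GA4 in all 4 numbers were 3 of 6, against 10.0% of all tested, and higher in all 4 were 0 of 6, against 9.64%. In no member were GA4 and water free of overlap (0 of 6), against 2.29% of all tested. The median difference was −0.28 over the 5 WRKY members and −0.33 over all 6, beside 0.0076 over all tested probe sets. The WRKY median was −0.096 without GA4 replicate 1 alone and −0.085 without GA4 replicate 2 alone. With the replicate block it was −0.15 without replicate 1 and −0.20 without replicate 2. With 6 members these counts describe these genes only.

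**Figure D3:**
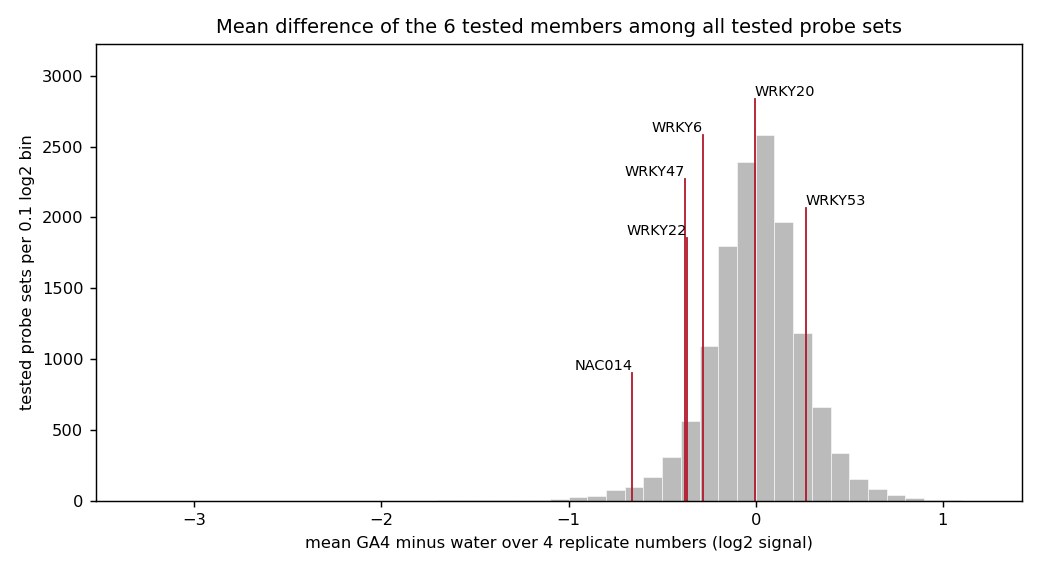
Number of tested probe sets (vertical axis) by mean GA4 minus water on the log2 scale (horizontal axis, bins of 0.1), with a red line at each tested member, whose height has no meaning. NAC014 at −0.66 lies in the lower tail, and WRKY20 lies at the centre.

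By replicate number, 4 of the 6 members were lower on GA4 in replicate 1, and 5 of 6 in each of replicates 2, 3 and 4. All tested probe sets were lower in 48.0%, 51.5%, 49.1% and 50.1% of cases. The members' differences were wider in replicates 1 and 2, with a median size of 0.46 and 0.71, than in replicates 3 and 4, with 0.12 and 0.23. The same held for all tested probe sets, at 0.32 and 0.27 against 0.18 and 0.15. In both treatments, replicates 1 and 2 differed from replicates 3 and 4 as arrays. Log2 signals of the tested probe sets correlated at 0.923 to 0.955 within replicates 1 and 2, at 0.976 to 0.984 within replicates 3 and 4 and at no more than 0.926 between them. The 3′ to 5′ signal ratio of the GAPDH control, a measure of RNA integrity and labelling, ran from 2.13 to 5.43 in the first set and from 0.958 to 1.14 in the second. That of ubiquitin was 1.66 to 4.17 against 1.21 to 1.39, and that of actin overlapped, at 3.67 to 13.6 against 3.03 to 5.63. Within replicates 1 and 2 these ratios also differed between treatments. GAPDH was at 3.499 and 5.43 on GA4 against 2.25 and 2.13 on water. Ubiquitin was at 4.17 and 2.53 against 3.597 and 1.66, and actin was mixed, at 6.41 and 5.34 against 13.6 and 3.67. The lower quartile of the signals was 77.4 and 61.8 units on GA4 against 52.2 and 51.6 on water. The part of these differences, between sets or between treatments, in the results was not tested.

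The levels of 2 of the 6 tested members separated these sets of arrays without overlap, against 37.4% of all tested probe sets. WRKY22 was higher on replicates 3 and 4, by 0.79 in water and 1.12 in GA4 on the log2 scale. WRKY20 was lower there, by a difference of −0.22 in water and −0.33 in GA4. The array medians over all probe sets that are not controls were also lower there, at 163 to 172.5 units against 202.8 to 223. Their part in the WRKY20 difference was not tested. For WRKY22 the difference between sets was larger than that between treatments.

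Within replicates 1 and 2 alone, GA4 minus water was −0.79 for NAC014, −0.53 for WRKY22, −0.50 for WRKY6, −0.50 for WRKY47, 0.65 for WRKY53 and 0.048 for WRKY20. Within replicates 3 and 4 alone the same differences were −0.53, −0.21, −0.060, −0.26, −0.11 and −0.056. NAC014, WRKY22, WRKY6 and WRKY47 had negative differences in both sets, and WRKY53 and WRKY20 had opposite signs in them. A limma interaction term asked whether the GA4 effect depended on the set. Here 0 of the 6 members passed, as did 0% of all tested probe sets (957 of them, or 7.01%, had an unadjusted p under 0.05). The widest gap among the 6 tested members was that of WRKY53, at −0.76 for replicates 3 and 4 minus replicates 1 and 2 (SE 0.50, interval −1.86 to 0.35, adjusted p = 0.772). With 2 arrays per treatment in each set, these intervals leave room for sizeable differences.

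Of 17 role lists of MYB, WRKY and NAC genes with 141 genes, 2 lists had a probe set named here, with 4 genes in all. The defence and senescence list of WRKY genes held WRKY6, WRKY22 and WRKY53, 3 of its 23 genes, and none passed. The list of membrane-bound NAC genes held NAC014, 1 of 13. None of the 3 GAMYB genes, which are known from gibberellin responses, none of the 7 flavonol and anthocyanin MYB genes and none of the 7 stress NAC genes had a probe set named here. Of 11 partners and targets of MYB proteins in flavonoid synthesis, 2 had one and were tested, and 0 passed in either fit. They were the anthocyanin enzymes DFR at −0.61 and UF3GT at −0.71 (adjusted p = 0.0811 and 0.108 with the replicate block, 0.9999 for both without). None of 9 WRKY signalling genes and none of 5 NAC targets in the secondary wall had one. Of 15 genes of gibberellin signalling and feedback, 5 were tested. None of them passed without a block, and with the replicate block 2 were lower in GA4 and 0 higher. Those were the gibberellin receptors GID1A and GID1B, at −1.61 and −1.44 (adjusted p = 0.00929 and 0.0419 with the replicate block, 0.0856 and 1.00 without). The other tested genes of that list, SLY1, SLY2 and SPY, were at −0.65, −0.20 and −0.048 and passed in neither fit. The receptor GID1C had a mean below the level for testing, with signals of 71.1 to 133 units and a difference of 0.048.

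The shoot label could be checked with few markers. FAMA, a guard cell gene listed as FMA, had a signal of 161 to 260 over the 8 arrays, and CLV3 of the shoot apex had 4.17 to 11.8. The root genes EXPA7 and EXPA18 had 52.1 to 126 and 11.8 to 127 units, with means below the level for testing. The other 8 of 12 markers had no probe set named here.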

How the data were processed

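The authors deposited linear MAS5 signal intensities, 1 for each probe set on each array. The submitters' processing notes name MAS5 and give no version. RNA came from 100 mg of tissue and was labelled with biotin, per the labels' protocols. The 2%-trimmed means of the 8 arrays were 500.04 to 500.05, so no further scaling was applied. The 64 array controls were left out, signals under 1 (703 values) were set to 1, and log2 was taken. The brightest 60% of probe sets by mean log2 signal over the 8 arrays (13648) were tested with limma 3.58.1 (R 4.3.3; lmFit, then eBayes using a mean-variance trend), 2-sided, with Benjamini-Hochberg adjustment over all 13648. Precision is limited by having 4 arrays per group. Names of genes were those of the platform annotation, updated through the TAIR10.1 gene table, which changed 0 of the 7 member symbols. No coordinates are given, since the array's annotation names no genome build.

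The planned fit had no block. Arrays of the same number deviated together from their group means (correlations of 0.616 to 0.685 in the 4 pairs), and 8 of 8 arrays matched their own number best across treatments. Different numbers reached 0.599. The part of the split of replicates 1 and 2 from 3 and 4 in these correlations was not tested. Both fits are given.

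The members, the role lists and the rule for naming genes were chosen with earlier results of these data known. The rule named members called in either fit, the 4 brightest in water per family and those next to the level of 110. It also named the 3 largest differences in each direction that had 1 sign in all 4 numbers. Role-list members were to be counted, with values only for those on the GAMYB, flavonol and anthocyanin, and stress NAC lists. The rule took in every member but WRKY53, which is on the defence and senescence list. WRKY53 is given with values outside the rule, and so are the named genes of the flavonoid and gibberellin lists. The code was tested on simulated data. Alternatives were the blocks, the replicate sets, quantile normalization, other filters and floors, no trend, and leaving out arrays.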

Additional observations from a re-analysis of the deposited data

Results flagged for a closer look

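WRKY42, below the level for testing, stood out in 2 ways, which both draw on GA4 replicate 2 and are not separate observations. Its log2 signal on GA4 replicate 2 was 6.42, and the gap to the nearest GA4 array was 0.924 of the range of the 4 GA4 arrays, the only such case in 14 groups of 4 arrays; chance marks about 1 in 20 groups. Its GA4 minus water was positive in replicates 1 and 2 (0.22 and 2.63) and negative in replicates 3 and 4 (−1.05 and −0.21), a difference of −2.06 between the sets that was not tested. All 8 signals were under 110 units.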

How the results depend on the processing

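The count of WRKY and NAC calls was 0 in all 22 alternatives of the test, with 0 to 3 members at an unadjusted p under 0.05. NAC014 stayed negative in all 22, at −0.81 to −0.47 with adjusted p of 0.0902 to 1.00, and WRKY22, WRKY6 and WRKY47 stayed negative wherever they were tested. The count over all tested probe sets, 2 in the planned fit, was 40 with the replicate block, 32 with the block on replicate sets, 1 within replicates 1 and 2 alone, 9 within replicates 3 and 4 alone, 1 without a filter and 1 in the brightest 40%. It was 20 with the replicate block and quantile normalization, an alternative chosen after seeing the data. It was 1 without any 1 array, and 8 to 53 when 1 replicate number was left out of the fit with the replicate block (14, 8, 53 and 43 without replicates 1 to 4). The replicate block changed no member's call. The WRKY median of −0.28 was −0.50 within replicates 1 and 2 and −0.11 within replicates 3 and 4. Leaving out 1 array gave −0.40 to −0.085, with −0.096 without GA4 replicate 1 and −0.085 without GA4 replicate 2, and leaving out 1 number gave −0.34 to −0.15. WRKY53 turned to −0.11 within replicates 3 and 4, and ran from −0.026 (without GA4 replicate 1) to 0.50 when 1 array was left out. With the replicate block and 1 number left out, WRKY53 was 0.14 to 0.47. WRKY20, at −0.0042, was 0.048 within replicates 1 and 2, 0.025 with quantile normalization, also with the replicate block, and −0.061 to 0.086 without 1 array. With the replicate block and 1 number left out it was −0.049 to 0.028, including 0.0058 without replicate 2. The cause was not tested. The brightest 40% left out WRKY6, WRKY47 and WRKY53. With limits of 55 and 220 units, 6 and 4 of the 7 members were above.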

Other observations

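One further WRKY gene has a probe set here under another symbol and so falls outside the rule. ZAP1 (AT2G04880, 263626_at), listed with the synonym WRKY1, had a mean log2 signal of 9.06 ± 0.25 in water and 8.55 ± 0.16 in GA4 (SD, n = 4). It was lower on GA4 in 4 of 4 replicate numbers, at −0.51 (SE 0.18), and passed in neither limma fit (adjusted p = 1.00 without a block and 0.157 with the replicate block). It was named after its values were seen.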
